A study of Apis mellifera with 12 samples.

Results

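Gene expression was compared between the brains of 4 mated and 4 CO2-treated honey bee queens (Apis mellifera), which were 8 of the 12 queens in the series. The members were chosen by the group named in each sample's label, and the comparison runs over all 13038 genes with enough counts to be tested, of 15314 genes in the count table. Mated queens had left their colony on a mating flight at 6 days of age and returned with a mating plug. CO2-treated queens were caged and narcotized with CO2 for 10 min on day 6 and again on day 7. The other 4 queens were virgin queens, which were caged with the CO2-treated queens but not narcotized, and their values are given only where they place a gene. All were sisters reared from a single colony, each was 8 days old when harvested, and each gave a single brain library.

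A queen mates only in the first weeks of her adult life, stores the semen, and then changes from a flying insect that is attracted to light into an egg layer that stays in the nest. CO2 narcosis is a tool of beekeeping, since it brings inseminated queens into egg laying sooner and also moves virgin queens towards laying. The comparison therefore asks in which genes the brain after mating differs from the brain after narcosis, an artificial stimulus for the same transition. At harvest, according to the dissections in the study's methods, the mated queens had developing eggs and semen, and the CO2-treated queens had neither. Flight, copulation, caging, narcosis, the time from the last treatment to harvest and ovary state all differed between the groups and cannot be told apart here. The study narcotized the CO2-treated queens together in a bag, so that treatment was not applied queen by queen.

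The libraries held between 16632447 and 20677514 counts in mated queens and between 12434733 and 19950311 counts in CO2-treated queens. GB49544 is called vitellogenin here, the yolk precursor made in the fat body. The lists used give this ID no name, and it was matched by its total counts to the gene the study plots as Vit. It took 13.7%, 23.2%, 42.7% and 32.9% of all counts in mated queens 1, 4, 6 and 7, against 1.12%, 3.21%, 1.96% and 5.02% in CO2-treated queens 1, 2, 5 and 7. The same order of queens is kept wherever 4 values are given, and virgin queens are given in the order 1, 2, 4 and 6. Because 1 gene took so many counts, levels were scaled by TMM, which sets libraries on a common scale through the bulk of the genes, and are given as CPM, read counts relative to library size, on that scale. The TMM factors ran from 0.556 to 1.03 in mated queens and from 1.09 to 1.29 in CO2-treated queens. CPM is not corrected for gene length, so levels are compared between queens and not between genes. In a whole brain, fewer cells of a type and less RNA per cell cannot be told apart. Nothing states that any 2 queens were handled as a pair, and p values measure the spread between sister queens of this colony. That spread was taken within the groups over all 12 queens, the virgin queens included.

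In all, 86 genes passed an adjusted p under 0.05 in edgeR's quasi-likelihood test, which is 0.66% of the genes tested. Of these, 68 were higher in mated queens (0.522% of the genes tested) and 18 were lower (0.138%). The rises ran from 1.04 to 6.00 on the log2 scale with a median of 2.23. The falls ran from -1.20 to -4.39 with a median of -2.61. Both extremes were in genes with almost no counts in a group. GB49581, at 6.00, had no count in any CO2-treated queen, while the mated ones had 3, 4, 10 and 7 counts. GB44700, at -4.39, had only 2, 0, 0 and 0 counts after mating. Of the 86 genes, 10 averaged under 1 log2 CPM, and these are left out of the largest rises and falls described below. Fold changes are mated over CO2-treated throughout, so a positive value means a higher level in mated queens, and 1 on the log2 scale is a doubling. The median over all genes tested was -0.03, and 47.1% of genes had a positive value. The 4 mated and 4 CO2-treated values did not overlap in 85 of the 86 genes, against 10.8% of all genes tested (5.48% higher and 5.33% lower in mated queens). An unadjusted p under 0.05 was reached by 1805 genes, or 13.8% of those tested, most of which did not pass the adjustment. The count depended on the test and on the scaling. It was 421 by DESeq2 and 627 by edgeR's exact test with a common dispersion, against 62 to 90 under other filters on low counts. Without TMM factors 24 genes were higher and 73 lower, and the median over all genes was then -0.67.

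**Figure D1:**
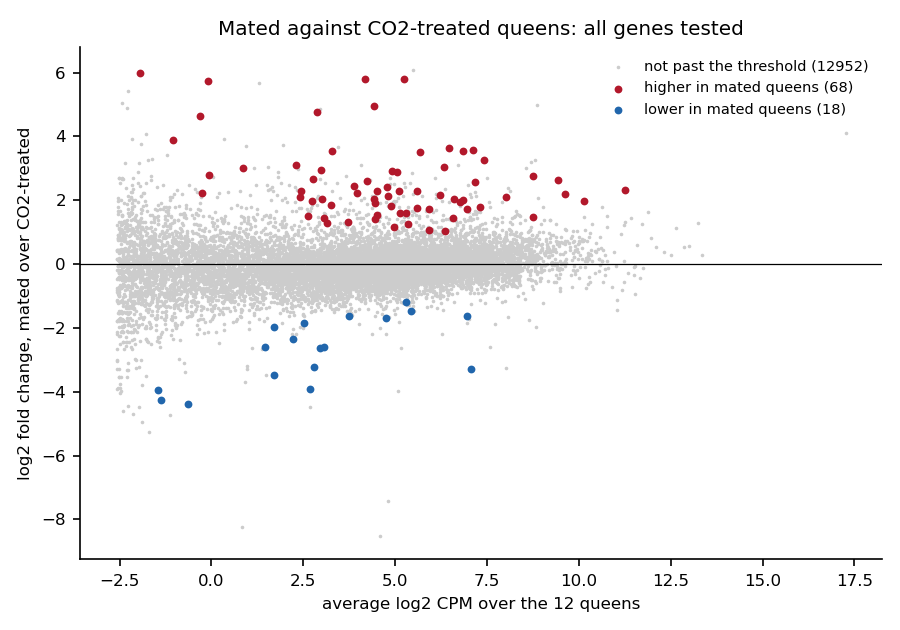
Each point is 1 of the 13038 genes tested, with its average log2 CPM over the 12 queens on the x axis and its log2 fold change (mated over CO2-treated) on the y axis. Red points are the 68 genes that were higher in mated queens at an adjusted p under 0.05, blue points are the 18 genes that were lower, and most grey points lie close to 0.

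The difference was not equally large in the 4 mated queens. Mated queen 1 was the lowest of the mated queens in 53 of the 68 rises, and mated queen 6 was the highest in 35. The median level of the 68 genes was 4.88, 5.78, 6.24 and 5.79 log2 CPM in the mated queens, against 3.55, 3.54, 3.58 and 3.69 log2 CPM in the CO2-treated queens. Even the least changed mated queen therefore lay above all CO2-treated queens in this median, although the genes were chosen for being higher and the gap itself is no test. In the 18 falls, CO2-treated queen 1 was the highest of its group in 12 genes. Over all genes, the median SD of log2 CPM was 0.411 between mated queens and 0.265 between CO2-treated queens, and 72.0% of genes had the larger SD in mated queens. Without mated queen 1, 179 genes passed the threshold, 84 of them among the 86, and leaving out any other mated or CO2-treated queen left 18 to 40 genes. Which 1 of the 8 queens was left out did not matter for 16 genes, 12 rises and 4 falls, which passed in all 8 of these fits.

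**Figure D2:**
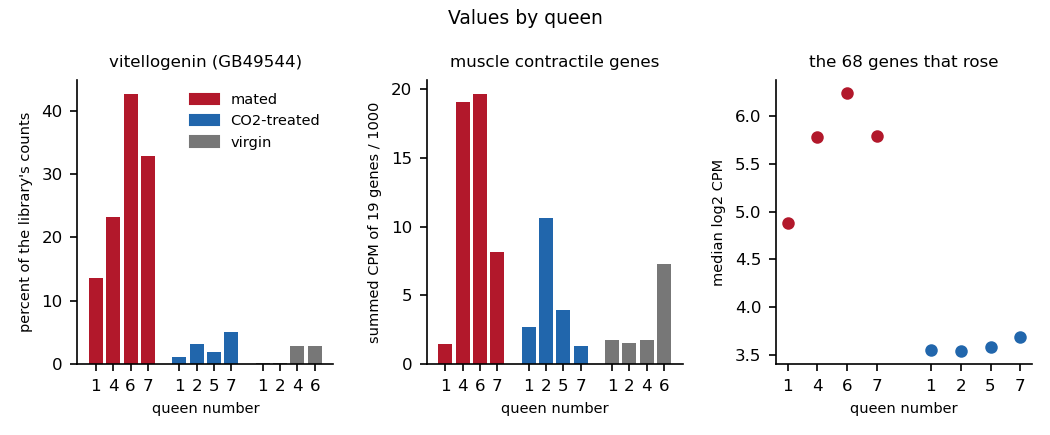
Bars in the left and middle panels give, for each queen, the percent of library counts from vitellogenin and the summed CPM of 19 muscle contractile genes (the axis is divided by 1000), and points in the right panel give the median log2 CPM of the 68 genes that rose. Mated queen 1 is the lowest mated queen in all 3 panels, and its muscle gene level lies within the range of the CO2-treated queens.

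The rise with the lowest p was in GB43890, whose Drosophila ortholog CG1827 encodes an asparaginase of glycoprotein breakdown in lysosomes. It stood at 123, 188, 259 and 209.5 CPM in mated queens, against 17.7, 22.9, 28.4 and 24.8 CPM in CO2-treated queens. No mated queen was near the CO2-treated range, and the difference was far larger than the spread in either group (log2 fold change 3.05, SE 0.27, adjusted p = 0.000556). Virgin queens had 18.1, 30.0, 16.2 and 24.2 CPM, about the level of the CO2-treated queens. Of the 10 largest rises, GB49078 (ortholog CG32645) varied least between mated queens, with 456, 398, 408 and 424 CPM in mated queens, against 35.8, 34.7, 59.8 and 45.2 CPM in CO2-treated queens (log2 fold change 3.26, SE 0.37, adjusted p = 0.00191). GB41916 (ortholog CG31248) had 49.6, 138, 212 and 125 CPM in mated queens, against 12.4, 8.42, 15.3 and 9.95 CPM in CO2-treated queens (log2 fold change 3.51, SE 0.39, adjusted p = 0.00191). Its lowest value in mated queens, in queen 1, was still more than 3 times the highest in CO2-treated queens. All 3 genes passed the threshold whichever queen was left out.

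Of the 10 largest rises, 5 were in genes below 5 CPM in every CO2-treated queen. GB55263 is an ortholog of CG5065, a fatty acyl-CoA reductase of the enzyme family that makes fatty alcohols for waxes and pheromone components. It had 15.7, 52.3, 223 and 153 CPM in mated queens, against 0.500, 1.04, 1.44 and 4.8 CPM in CO2-treated queens. The group ranges were well apart, but the mated queens themselves differed more than 10-fold (log2 fold change 5.80, SE 1.04, adjusted p = 0.0245). GB40699 (ortholog CG7509) had 8.5, 37.9, 139 and 26.2 CPM in mated queens, against 0.563, 0.936, 0.981 and 1.25 CPM in CO2-treated queens (log2 fold change 5.80, SE 0.79, adjusted p = 0.00544), and again mated queen 6 was the highest and mated queen 1 the lowest. GB46629, which has no listed ortholog, had 11.7, 44.1, 105 and 84.3 CPM in mated queens, against 1.56, 1.2, 3.29 and 1.88 CPM in CO2-treated queens (log2 fold change 4.95, SE 0.80, adjusted p = 0.0163). In GB54093, ortholog of boule (bol), an RNA-binding protein required for male meiosis in Drosophila, mated queens had 5.1, 38.6, 33 and 23.7 CPM, against 1.0, 1.82, 3.69 and 2.11 CPM in CO2-treated queens (log2 fold change 3.53, SE 0.60, adjusted p = 0.0192). Mated queen 1 lay only just above the CO2-treated range in this gene. GB48769 is an ortholog of CG14928 (spätzle 4), a ligand of the family that activates Toll receptors. It had 10.8, 7.28, 18.6 and 10.9 CPM in mated queens, against 1.06, 0.884, 0.981 and 2.55 CPM in CO2-treated queens (log2 fold change 3.10, SE 0.40, adjusted p = 0.00416), with CO2-treated queen 7 above the rest of its group. Of the 10 largest rises, GB40699, GB41916, GB49078 and GB48769 passed the threshold in every fit that left out a queen.

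Another 3 of the 10 largest rises followed each other from queen to queen. GB42557 is named JHBP-1 in RefSeq, and its ortholog CG13618 belongs to the takeout and juvenile hormone binding family, whose members carry small lipophilic ligands in haemolymph. Juvenile hormone delays metamorphosis in larvae and stimulates egg production in adults of many insects. JHBP-1 had 306, 409, 297 and 177 CPM in mated queens, against 17.1, 13.6, 50.1 and 20.8 CPM in CO2-treated queens (log2 fold change 3.55, SE 0.68, adjusted p = 0.0319). GB42556, with the preceding ID number, had 259, 302, 211 and 143 CPM in mated queens, against 11.9, 9.93, 38.3 and 13.1 CPM in CO2-treated queens (log2 fold change 3.64, SE 0.71, adjusted p = 0.0338). GB48492 had 402, 468, 354 and 200.3 CPM in mated queens, against 19.3, 17.4, 57.7 and 24.4 CPM in CO2-treated queens (log2 fold change 3.58, SE 0.65, adjusted p = 0.026). In each of these 3 genes mated queen 4 was the highest of its group and CO2-treated queen 5 the highest of its own. Virgin queen 6 was likewise the highest virgin queen, with 62.8 CPM in JHBP-1, above all CO2-treated queens. Whether reads were shared among the 3 genes was not tested, so their rises may not be independent. When the 8 queens were left out in turn, each passed in only 2 fits.

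**Figure D3:**
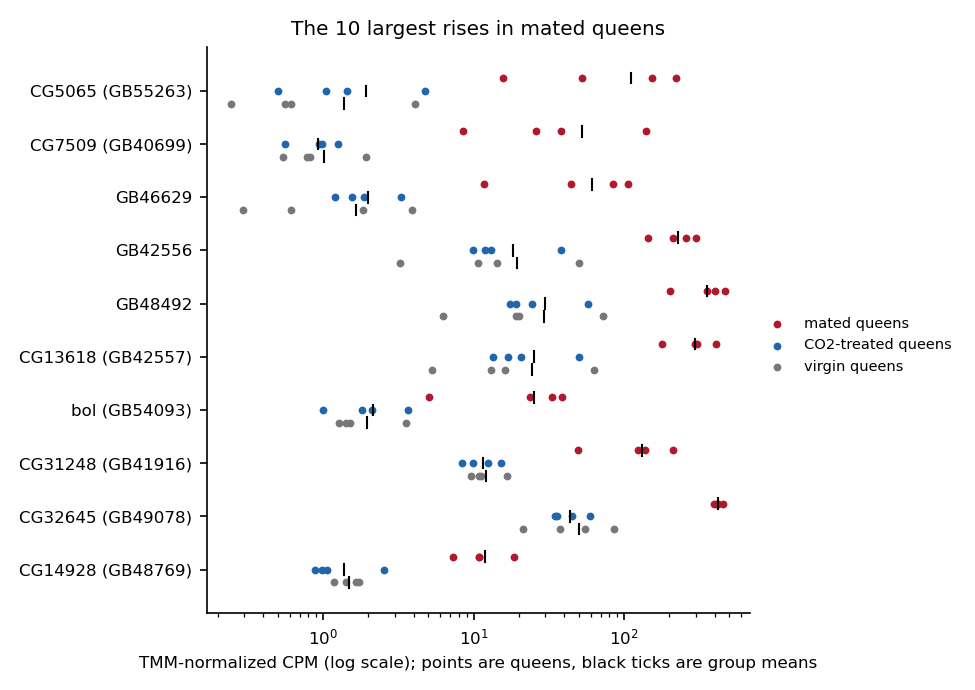
TMM-normalized CPM on a log scale for the 10 largest rises among genes that passed, had separate groups and averaged at least 1 log2 CPM, with a point per queen and a black tick at each group mean. Mated queens (red) lie to the right of all CO2-treated queens (blue) in each gene, and virgin queens (grey) have means close to those of the CO2-treated queens.

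Among the falls, PQBP-1 (GB44248) had the lowest p. Its ortholog binds polyglutamine tracts and is a nuclear factor of transcription and splicing. It had 1.23, 1.44, 0.696 and 0.632 CPM in mated queens, against 22.1, 13.3, 10.0 and 16.9 CPM in CO2-treated queens (log2 fold change -3.93, SE 0.40, adjusted p = 0.00129). Virgin queens had 3.02, 2.76, 2.47 and 1.22 CPM, so the CO2-treated queens stood above both other groups. The fold change of CO2-treated over virgin queens was 2.70 (adjusted p = 0.0351), and that of mated over virgin queens was -1.23 (adjusted p = 0.145). Lar (GB49390), a receptor tyrosine phosphatase that guides axons and shapes synapses in Drosophila, had 64.2, 85.2, 83.2 and 69.2 CPM in mated queens, against 298, 181, 227 and 230.4 CPM in CO2-treated queens (log2 fold change -1.63, SE 0.21, adjusted p = 0.00416). Virgin queens had 77.2, 48.2, 60.3 and 49.7 CPM, below every CO2-treated queen, and the fold change of CO2-treated over virgin queens was 1.99 (adjusted p = 0.00482). Mated and virgin queens differed by 0.36 in Lar (adjusted p = 0.419). These 3 comparisons share queens, so they are not independent of each other. PQBP-1 and Lar are both on the lists of genes that the study called from these same libraries, so their falls here are not independent evidence of that direction. All but 1 of the 86 genes past the threshold are on those lists, so the same limit holds for the other rises and falls described here. PQBP-1 and Lar both passed whichever queen was left out.

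Other falls also had virgin queens near the mated level. GB48936, ortholog of the sugar transporter CG10960, had 0.879, 0.865, 1.22 and 0.994 CPM in mated queens, against 11.6, 3.95, 4.62 and 4.17 CPM in CO2-treated queens (log2 fold change -2.61, SE 0.46, adjusted p = 0.0245), and virgin queens had 1.13, 0.444, 0.842 and 0.287 CPM. CO2-treated queen 1 was the highest by far in this gene. GB43847 is an ortholog of dmrt93B, a transcription factor of the doublesex family. It had 2.52, 1.3, 1.13 and 1.08 CPM in mated queens, against 5.5, 5.41, 4.68 and 8.38 CPM in CO2-treated queens (log2 fold change -1.97, SE 0.38, adjusted p = 0.0338), and virgin queens had 2.66, 1.13, 1.18 and 1.87 CPM. CG7097 (GB44263), the kinase called happyhour in Drosophila, where it affects the response to ethanol, had 24.3, 25.2, 24.6 and 32.1 CPM in mated queens, against 73.4, 62.8, 46.5 and 60.4 CPM in CO2-treated queens (log2 fold change -1.20, SE 0.22, adjusted p = 0.026). Virgin queens had 38.1, 26.7, 31.9 and 19.7 CPM in CG7097. For these 3 genes the difference between CO2-treated and virgin queens did not pass the threshold (adjusted p = 0.0619, 0.456 and 0.456 in the order given).

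A second set of falls had virgin queens at or above the level of CO2-treated queens. GB52375, an ortholog of the odorant receptor Or43a, had 0.879, 0.793, 0.783 and 1.08 CPM in mated queens, against 10.1, 12, 6.41 and 4.39 CPM in CO2-treated queens (log2 fold change -3.21, SE 0.47, adjusted p = 0.00914), and virgin queens had 6.25, 20.7, 10.6 and 6.31 CPM. The mated queens lay within a narrow range, and all of them were well below the lowest CO2-treated queen. GB42552, which has no listed ortholog, had 2.4, 1.59, 0.609 and 1.08 CPM in mated queens, against 12.4, 9.41, 6.64 and 7.39 CPM in CO2-treated queens (log2 fold change -2.63, SE 0.40, adjusted p = 0.0115), and virgin queens had 9.74, 14.3, 16.1 and 8.47 CPM. Its neighbour by ID number, GB42553, is an ortholog of the lipase CG6296. GB42553 had 1.29, 1.51, 0.696 and 0.542 CPM in mated queens, against 7.44, 5.56, 4.39 and 3.81 CPM in CO2-treated queens (log2 fold change -2.36, SE 0.36, adjusted p = 0.0115), and virgin queens had 7.33, 8.48, 7.08 and 5.52 CPM. GB42799 is an ortholog of CG10407, a second member of the takeout and juvenile hormone binding family. It had 1.93, 2.02, 0.87 and 0.813 CPM in mated queens, against 13.1, 4.99, 6.7 and 10.1 CPM in CO2-treated queens (log2 fold change -2.60, SE 0.42, adjusted p = 0.0166), the opposite direction to JHBP-1. Virgin queens had 15.7, 21.9, 9.94 and 11.2 CPM in this gene. GB46749, ortholog of CG9357, had 1.7, 2.45, 0.87 and 1.35 CPM in mated queens, against 5.19, 6.81, 5.48 and 5.83 CPM in CO2-treated queens (log2 fold change -1.86, SE 0.37, adjusted p = 0.0426). In all of these genes mated queens were also below virgin queens, with adjusted p from 0.005 to 0.00937, while CO2-treated and virgin queens did not differ past the threshold (adjusted p from 0.833 to 0.9).

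CG15343 (GB54776) varied widely among the CO2-treated queens. It had 27.5, 32.2, 17.9 and 32 CPM in mated queens, against 53.6, 176, 579 and 269 CPM in CO2-treated queens (log2 fold change -3.30, SE 0.58, adjusted p = 0.023). Virgin queens had 56.5, 102, 99.6 and 166 CPM, inside the CO2-treated range. The sharpest contrast between neighbours by ID number was in a pair of sugar transporter orthologs. GB48936 (CG10960) fell, as given above, while GB48937 (CG1213) was higher at 30.4, 147, 148 and 91.2 CPM in mated queens, against 18.9, 24.7, 20.6 and 20.4 CPM in CO2-treated queens (log2 fold change 2.30, SE 0.43, adjusted p = 0.0298). Among the 86 genes, 6 pairs had consecutive ID numbers. In the other 5 pairs both genes moved the same way. Positions in the genome were not used here.

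**Figure D4:**
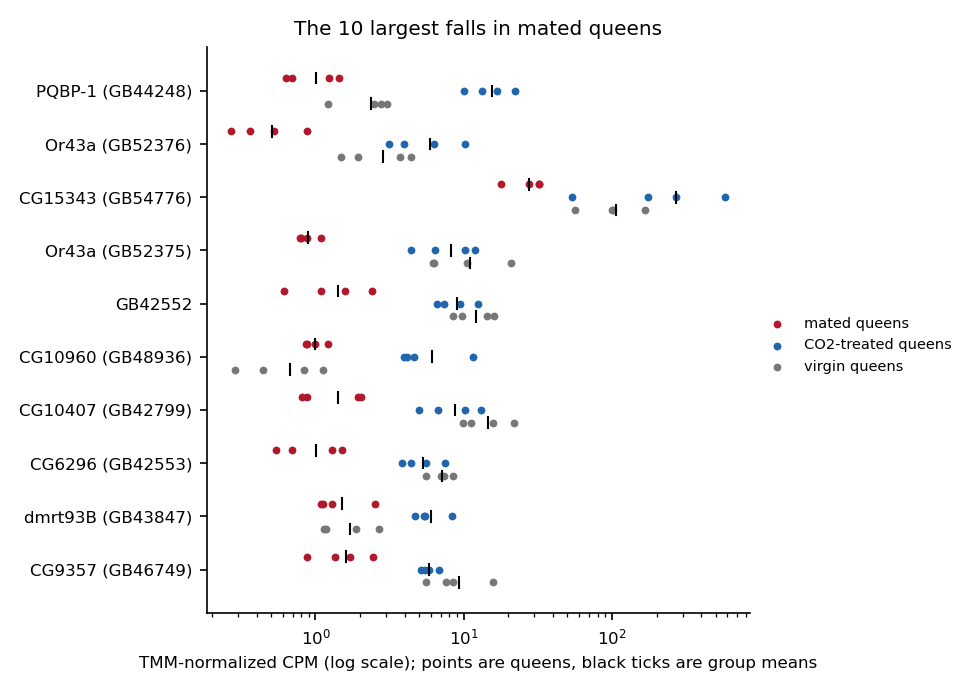
TMM-normalized CPM on a log scale for the 10 largest falls among genes that passed, had separate groups and averaged at least 1 log2 CPM, with a point per queen and a black tick at each group mean. Mated queens (red) lie to the left of all CO2-treated queens (blue) in each gene. Virgin queens (grey) sit near the mated queens in PQBP-1, CG10960 (GB48936) and dmrt93B. In most of the others they sit near or above the CO2-treated queens.

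To place the comparison in known pathways, 190 genes were followed in 28 lists of known function. The lists were drawn from genes that the study called in these libraries, so a list's direction is not independent evidence. Of the 86 genes past the threshold, only 1 is on no list of the study's called genes. A list's share of genes past the threshold, or without overlap, is therefore raised by how the lists were made. The 0.66% of all genes tested is given for scale only and cannot show that a list is enriched. Of the 190 listed genes, 15 passed. List medians are given beside the median of -0.03 over all genes tested. Without TMM factors that median was -0.67, and every list median was lower too. The medians of the photoreceptor, hemocyte, extracellular matrix and Osiris lists then changed sign, from 0.36, 0.53, 0.69 and 0.53 with TMM to -0.24, -0.19, -0.03 and -0.03. Relative to the median over all genes without TMM factors, these lists still stood higher, by 0.425, 0.474, 0.635 and 0.635 in the same order.

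Yolk and storage proteins had the highest list median. These genes encode proteins that the fat body secretes into haemolymph for the eggs and for storage. Of the 4 members, 4 had a positive fold change and none passed the threshold (median 2.64). Vitellogenin had 133250.0, 324482, 769172 and 499055 CPM in mated queens, against 8672, 29134, 17955 and 44905 CPM in CO2-treated queens. The groups did not overlap, but the difference did not pass the threshold (log2 fold change 4.10, SE 1.21, adjusted p = 0.175). That test takes in the spread of the virgin queens as well. The adjusted p was 0.000118 by DESeq2 and 5.01e-19 by edgeR's exact test with a common dispersion. Virgin queens had 1259, 1118, 25150.0 and 27225 CPM, which spans more than 20-fold. CPM are divided by the TMM factor as well, so in mated queens 4, 6 and 7, whose factors were under 1, the CPM of vitellogenin exceed its share of counts. Hexamerin Lsp2 (GB51698), a storage protein, had 169, 595, 2928 and 687 CPM in mated queens, against 38.5, 52.4, 132 and 255 CPM in CO2-treated queens (log2 fold change 3.20, SE 0.81, adjusted p = 0.117), and the ranges overlapped. RfaBp (GB54507), the lipid carrier of the haemolymph, had 17058 ± 5424 CPM in mated queens and 7036 ± 1362 CPM in CO2-treated queens (SD, n = 4 each, log2 fold change 1.28, SE 0.44, adjusted p = 0.226). RfaBp, vitellogenin and GB43571, which has no listed ortholog, took the largest shares of counts over the 8 queens. GB43571 had 8159, 17988, 8869.9 and 18345 CPM in mated queens, against 5591, 14874, 10722 and 12532 CPM in CO2-treated queens, with wide overlap (log2 fold change 0.29, SE 1.15, adjusted p = 0.922). That SE also takes in the virgin queens, which had 78.7, 128, 13147 and 15336 CPM in GB43571. These 3 genes together took 15.5% to 44.5% of counts in mated queens and 2.54% to 7.29% in CO2-treated queens. Of 5 genes of the takeout and juvenile hormone binding family, 1 rose and 1 fell, JHBP-1 and CG10407 as given above (median 2.35).

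Odorant receptors had the lowest median among lists of at least 3 genes. They sit in olfactory neurons and bind odorants, and the odorant-binding and chemosensory proteins carry such ligands in the fluid around them. Of 10 receptors, 2 fell, none rose, and the median was -1.80. Both falls were in orthologs of Or43a, which have consecutive ID numbers. GB52376 had 0.879, 0.36, 0.522 and 0.271 CPM in mated queens, against 10.3, 3.95, 6.29 and 3.14 CPM in CO2-treated queens (log2 fold change -3.48, SE 0.53, adjusted p = 0.0115), and the other is GB52375, given above. Virgin queens had 1.49, 3.7, 4.38 and 1.94 CPM in GB52376. Or13a (GB52377) had 3.28, 1.73, 1.39 and 0.994 CPM in mated queens, against 11.4, 5.51, 8.72 and 4.17 CPM in CO2-treated queens (log2 fold change -1.98, SE 0.42, adjusted p = 0.0531). Or85c (GB52378) had 1.35, 0.865, 0.435 and 0.452 CPM in mated queens, against 3.5, 3.27, 2.31 and 2.24 CPM in CO2-treated queens (log2 fold change -1.82, SE 0.40, adjusted p = 0.0614). Neither passed, although their groups did not overlap, as in 6 of the 10 receptors, all lower in mated queens. Of all genes tested, 5.33% were lower without overlap, but the receptors were drawn from the study's called genes, so this is no test of enrichment. Or85b (GB48703) was at or near 0 in mated queens, with 0.176, 0, 0.174 and 0 CPM in mated queens, against 1.44, 0.624, 0.751 and 0.583 CPM in CO2-treated queens (log2 fold change -3.09, SE 0.69, adjusted p = 0.0699). Or49a (GB40665) overlapped between the groups (log2 fold change -1.77, SE 0.58, adjusted p = 0.203). Receptors with related sequences can share reads, and whether they did was not tested.

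Odorant-binding proteins had a positive median (1.44), and none of 6 members passed the threshold. GB46223 (Obp14 in RefSeq), an ortholog of Obp56d, had 774, 592, 1607 and 2411 CPM in mated queens, against 1.5, 19.6, 45 and 105 CPM in CO2-treated queens (log2 fold change 4.97, SE 1.34, adjusted p = 0.133). All mated queens were above all CO2-treated queens in this gene, and virgin queens had 0.41, 4.24, 3.76 and 45.1 CPM. By DESeq2 the adjusted p of GB46223 was 0.00223. Pbprp2 (GB53372, Obp4 in RefSeq) was the exception in direction, with 136, 153, 38.8 and 158 CPM in mated queens, against 694, 493, 286 and 441 CPM in CO2-treated queens (log2 fold change -1.98, SE 0.43, adjusted p = 0.0603). Its groups did not overlap, and virgin queens had 1021, 922, 466 and 678 CPM. Obp56g (GB46226, Obp17) had 36.4, 239.8, 191 and 158 CPM in mated queens, against 18.7, 38, 42 and 36.9 CPM in CO2-treated queens (log2 fold change 2.20, SE 0.69, adjusted p = 0.189). The other Obp56d ortholog (GB46230, Obp21) had 8.96, 271, 176 and 77.9 CPM in mated queens, against 21, 79.6, 67.1 and 71.8 CPM in CO2-treated queens (log2 fold change 1.16, SE 0.85, adjusted p = 0.544). Os-E (GB46225, Obp16) ranged from 3.63 to 168 CPM in mated queens, against 14.3 to 50.2 CPM in CO2-treated queens (log2 fold change 1.49, SE 0.93, adjusted p = 0.486). In the last 2 genes mated queen 1 was below every CO2-treated queen while mated queen 4 was above them all. Of the 3 chemosensory proteins, 1 rose (median 1.48). This was CSP3 (GB52324, ortholog PebIII), with 3376, 6528, 6819 and 3583 CPM in mated queens, against 741, 1371, 1275 and 699.6 CPM in CO2-treated queens (log2 fold change 2.31, SE 0.43, adjusted p = 0.026). All 4 mated queens were above all CO2-treated queens in CSP3.

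No gene followed for vision passed the threshold. None of the 8 photoreceptor genes passed, and no member was free of overlap (median 0.36 with TMM and -0.24 without). ninaA (GB40139), a chaperone of rhodopsin, had 26.9, 46.6, 17.2 and 13.1 CPM in mated queens, against 62.6, 23.2, 63.2 and 47.6 CPM in CO2-treated queens (log2 fold change -0.92, SE 0.50, adjusted p = 0.437). Rh2 (GB50034), an opsin, had 2.29, 11.8, 0.087 and 0.181 CPM in mated queens, against 2.38, 0.312, 0.52 and 2.06 CPM in CO2-treated queens (log2 fold change 1.46, SE 1.31, adjusted p = 0.626). Rh2 was above 5 CPM in only 1 of these 8 queens, whereas virgin queens had 130.2, 27.9, 15.1 and 1.0 CPM. Of 3 genes for CRAL-TRIO proteins, a family that includes retinoid carriers, none passed (median 1.34). CG10237 (GB45148) had the lowest p among them (log2 fold change 1.85, SE 0.58, adjusted p = 0.196).

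Lipid and detoxification genes mostly had positive fold changes, but few passed. Of 20 enzymes of fatty acyl chains, 17 had a positive fold change and 1 rose, the reductase CG5065 given above (median 1.25). Of 9 lipases, none rose and 1 fell, CG6296, although 8 of them had a positive value (median 1.25). Of 15 cytochrome P450 genes, whose enzymes oxidize hormones, fatty acids and toxins, 1 rose and none fell (median 1.34). The member that rose was Cyp9f2 (GB43711), with 6.74, 13.3, 11.5 and 10.1 CPM in mated queens, against 2.5, 1.72, 3.75 and 1.75 CPM in CO2-treated queens (log2 fold change 2.10, SE 0.39, adjusted p = 0.026). Other Cyp9f2 orthologs did not rise with it. GB43715 was lower in mated queens without overlap (log2 fold change -1.65, SE 0.48, adjusted p = 0.169). In GB43713 the groups overlapped (log2 fold change 0.65, SE 0.60, adjusted p = 0.636). Cyp6a2 (GB46814) had 11.2, 6.34, 7.57 and 0.903 CPM in mated queens, against 6.75, 5.25, 46.5 and 6.5 CPM in CO2-treated queens (log2 fold change -1.31, SE 0.76, adjusted p = 0.457), and its negative sign rested on CO2-treated queen 5. Without that queen its fold change was 0.087 (adjusted p = 0.957). Other Cyp6a2 orthologs had positive values that did not pass. GB49890 was higher in mated queens without overlap (log2 fold change 1.34, SE 0.35, adjusted p = 0.128). GB40248 had few or no counts in any queen (log2 fold change 5.04, SE 1.62, adjusted p = 0.248). Among 5 other detoxification enzymes, 1 rose, the flavin-containing monooxygenase Fmo-1 (GB42239), and the median was 1.41. Fmo-1 had 7.68, 18.5, 34.7 and 11.2 CPM in mated queens, against 2.19, 1.35, 2.77 and 2.96 CPM in CO2-treated queens (log2 fold change 2.95, SE 0.56, adjusted p = 0.0325). Aldh (GB49240), an aldehyde dehydrogenase, had 7313 ± 3023 CPM in mated queens and 2334 ± 1333 CPM in CO2-treated queens (SD, n = 4 each, log2 fold change 1.65, SE 0.87, adjusted p = 0.425). The SE also takes in the virgin queens, which had 166, 198, 2950 and 3788 CPM in Aldh.

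Sugar metabolism gave a like picture. Of 8 sugar transporters, 1 rose and 1 fell, the neighbouring pair given above (median 1.24). The fall was in GB48936 alone among the CG10960 orthologs. GB45582 and GB41034, also orthologs of CG10960, had positive fold changes that did not pass (1.03 and 0.94, adjusted p = 0.431 and 0.614). The groups did not overlap in GB45582 and overlapped in GB41034. Of 12 enzymes of carbohydrate metabolism, none passed (median 1.05). Trehalase (Treh, GB43575), which splits the blood sugar of insects, had 331, 1076, 1272 and 1132 CPM in mated queens, against 81.8, 114, 135 and 146 CPM in CO2-treated queens (log2 fold change 3.00, SE 0.72, adjusted p = 0.0913). Its groups did not overlap, but mated queen 1 was far below the other mated queens. Without mated queen 1 the adjusted p was 0.0489. Virgin queens, whose spread enters the test, had 14.3, 12.4, 111 and 139 CPM in Treh. By DESeq2 the adjusted p of Treh was 0.000421. Of 5 enzymes of aromatic amino acid breakdown and amine synthesis, none passed (median 1.46). Fumarylacetoacetase (Faa, GB40119) came closest, with 54.3, 103, 97.8 and 57.8 CPM in mated queens, against 26.3, 43.2, 35.5 and 33 CPM in CO2-treated queens (log2 fold change 1.18, SE 0.25, adjusted p = 0.0508). The insulin receptor InR (GB49662), a sensor of nutrition, had 42.8, 66.6, 189 and 89.1 CPM in mated queens, against 24.6, 43.1, 44.6 and 31.3 CPM in CO2-treated queens (log2 fold change 1.43, SE 0.44, adjusted p = 0.184). The adipokinetic hormone receptor (GB53230, ortholog GRHR, Akhr in RefSeq), which mobilizes energy stores, had 28.2, 76, 58.1 and 88 CPM in mated queens, against 13.3, 20.5, 36.4 and 29.4 CPM in CO2-treated queens (log2 fold change 1.33, SE 0.40, adjusted p = 0.177). In both receptors mated queen 1 lay inside the CO2-treated range. None of the 6 genes of insulin and amine signalling passed (median 0.77).

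Of 9 extracellular matrix genes, 1 rose (median 0.69 with TMM and -0.03 without). LanB2 (GB46618), the laminin gamma chain of basement membranes, had 772, 1301, 2452 and 1768 CPM in mated queens, against 235, 276, 242 and 255 CPM in CO2-treated queens (log2 fold change 2.64, SE 0.32, adjusted p = 0.00314). The CO2-treated queens and the virgin queens, with 230.3, 218, 284 and 225 CPM, lay within a narrow band that no mated queen reached. LanB2 passed whichever queen was left out. Of 4 heat shock genes, 1 rose (median 1.48). This was an l(2)efl ortholog (GB45910), a small heat shock protein, with 26.6, 36, 50.9 and 41.3 CPM in mated queens, against 10.7, 8.21, 9.18 and 9.28 CPM in CO2-treated queens (log2 fold change 2.05, SE 0.28, adjusted p = 0.00566). Virgin queens had 17.5, 21.3, 8.59 and 16.7 CPM, so they overlapped the CO2-treated range and stayed below the mated queens. The l(2)efl orthologs GB45906 and GB45913 had positive values with overlap (1.49 and 1.47, adjusted p = 0.328 and 0.199). Hsp83 (GB45495) went the other way, with 102 ± 21.5 CPM in mated queens and 237 ± 47.2 CPM in CO2-treated queens (SD, log2 fold change -1.21, SE 0.30, adjusted p = 0.103). The groups did not overlap in Hsp83.

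None of the genes on the lists for immunity, gas exchange, ion channels or growth factor signalling passed. CG14928 (GB48769), the Toll ligand family member among the largest rises above, is on none of these lists. In 9 immune genes the median was 0.91. PGRP-SA (GB51741), which recognizes bacterial peptidoglycan, had 170.4, 252, 629 and 489 CPM in mated queens, against 74.1, 132, 218 and 143 CPM in CO2-treated queens (log2 fold change 1.44, SE 0.62, adjusted p = 0.328). CG3829 (GB50865), a scavenger receptor, had 17.6, 62.2, 132 and 68.7 CPM in mated queens, against 7.69, 12.3, 12.5 and 16.4 CPM in CO2-treated queens (log2 fold change 2.52, SE 0.63, adjusted p = 0.11). Of 5 genes of gas, ion and calcium handling, the potassium channel Task6 (GB50377) had the lowest p, with 10.7, 7.71, 6.01 and 5.51 CPM in mated queens, against 37, 27.5, 21 and 24.9 CPM in CO2-treated queens (log2 fold change -1.88, SE 0.44, adjusted p = 0.0815). The carbonic anhydrase CAH2 (GB55070), an enzyme that hydrates CO2, had 19.8 ± 5.48 CPM in mated queens and 6.05 ± 2.92 CPM in CO2-treated queens (SD, n = 4 each, log2 fold change 1.71, SE 0.43, adjusted p = 0.117). All 5 genes of that list were free of overlap, 2 higher and 3 lower in mated queens, and the median was -1.20. The 10.8% of all genes without overlap is no fitting background for a list drawn from the study's called genes. Of 3 activity-regulated transcription factors, all had positive values (median 1.18), with Jra (GB53318), the fly Jun, at the lowest p (log2 fold change 1.18, SE 0.36, adjusted p = 0.186). Of 3 TGF-beta ligands, mav (GB55516) had the lowest p (log2 fold change 1.56, SE 0.42, adjusted p = 0.13). Of the 2 degenerin sodium channels, ppk16 (GB45440) had the lowest p (log2 fold change 1.29, SE 0.46, adjusted p = 0.238), as had Tektin-C (GB46926) of 7 axonemal genes (log2 fold change 1.38, SE 0.39, adjusted p = 0.153) and Osi23 (GB40438) of 4 Osiris genes (log2 fold change 2.25, SE 0.54, adjusted p = 0.0913). The medians of the last 4 lists were 1.56, 1.53, -0.78 and 0.53 in the order given, and that of the Osiris genes was -0.03 without TMM factors. Star (S, GB48935), which acts in EGF receptor signalling, and swi2 (GB45000) did not pass either (-1.25 and 1.52 on the log2 scale, adjusted p = 0.202 and 0.179 in the order given).

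**Figure D5:**
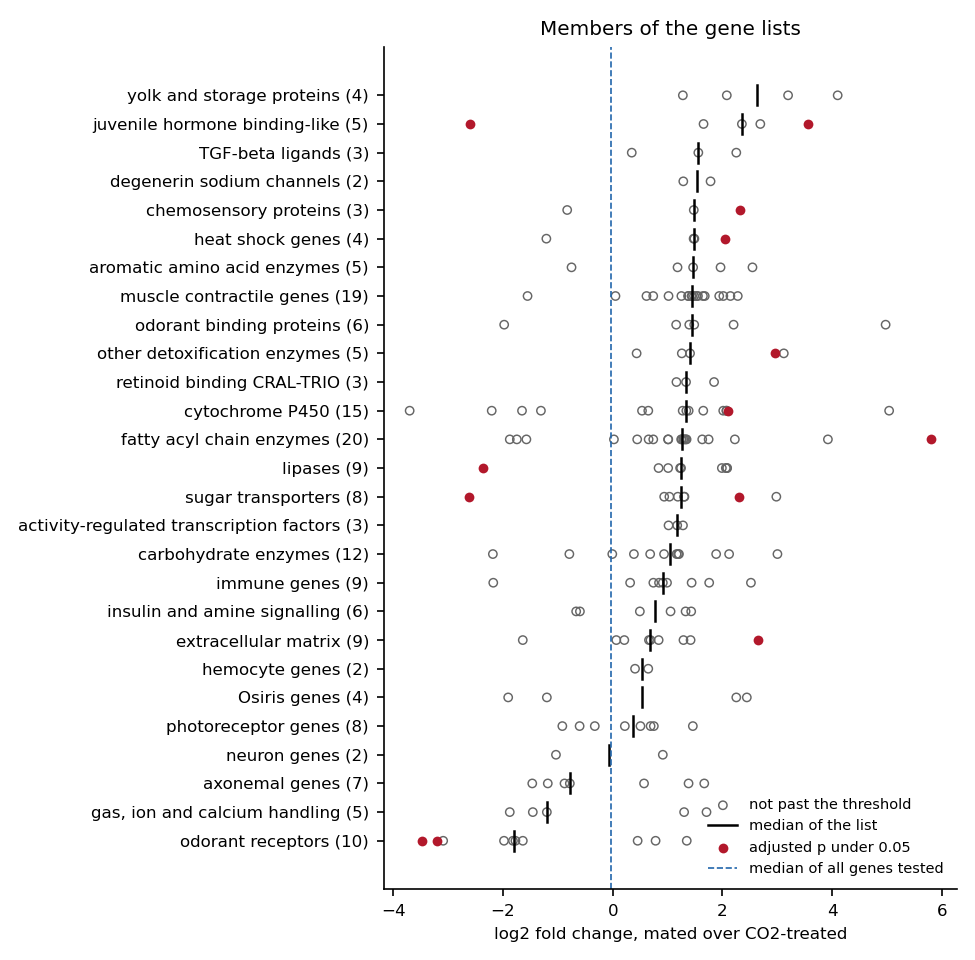
Each circle is the log2 fold change (mated over CO2-treated) of a gene in 1 of 27 lists, with the number of genes in parentheses, red where the adjusted p was under 0.05. Black ticks are list medians and the dashed line is the median of -0.03 over all genes tested. Yolk and storage proteins have the highest median, odorant receptors have the lowest, and red circles are few in every list.

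Tissues next to the brain can enter a dissected sample, so their markers are given beside these results. The 19 muscle contractile genes summed to 1479, 19076, 19688 and 8150.0 CPM in mated queens, against 2692, 10622, 3965 and 1324 CPM in CO2-treated queens. Of the 19 genes, 18 had a positive fold change, none passed the threshold (median 1.45), and no member with a positive value was free of overlap. Strn-Mlck (GB43867) was the member with the lowest p and a negative value (log2 fold change -1.55, SE 0.48, adjusted p = 0.186). The 4 fat body and haemolymph genes, which are the yolk and storage proteins above, summed to 143002, 342237, 794473 and 519128 CPM in mated queens, against 14229, 35562, 26621 and 52938 CPM in CO2-treated queens. The 2 hemocyte genes, Hml and srp, summed to 843, 2618, 2260.5 and 2647 CPM in mated queens, against 838, 775, 3328 and 1340.3 CPM in CO2-treated queens, with overlap. In srp (GB50930) the fold change was 0.65 (SE 0.65, adjusted p = 0.656). The photoreceptor genes of the retina summed to 139.9, 267, 76.3 and 71.2 CPM in mated queens, against 192, 86.2, 144 and 125 CPM in CO2-treated queens. No defining marker of these tissues was absent from all queens, and the part of muscle, fat body, hemocytes and retina in the genes that moved was not tested.

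Beside the tissue label, the levels of 2 neuron genes are given. Both were drawn from the study's called genes, so they are no test of tissue identity. Synaptotagmin (syt, GB54319) had 183, 278, 172 and 374 CPM in mated queens, against 53.3, 169.9, 82.8 and 228 CPM in CO2-treated queens (log2 fold change 0.91, SE 0.54, adjusted p = 0.468). The gene matched to bruchpilot (brp, GB51381), a protein of the active zone of synapses, was low in every queen, at 1.17, 0.721, 0.261 and 0.271 CPM in mated queens, against 1.75, 1.56, 1.15 and 0.762 CPM in CO2-treated queens (log2 fold change -1.04, SE 0.70, adjusted p = 0.513). Neither differed past the threshold.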

How the data were processed

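Brain RNA of 12 queens was sequenced as single-end reads, 1 library per queen, in 2 lanes, and which queens shared a lane was not analysed here. The authors trimmed with Trimmomatic and removed ribosomal sequences with SortMeRna. They aligned the remainder to Amel 4.5 with TopHat. The deposited raw read counts per gene come from SAMtools idxstats and were not normalized. The deposited score table was not used. Counts were analysed with edgeR 4.0.16 (R 4.3.3). Genes with 10 counts or more summed across all libraries were kept, which is 1 reading of the study's filter. Libraries were scaled by TMM, and edgeR's quasi-likelihood model covered the 12 queens in 3 groups (9 residual and 4.25 prior degrees of freedom) after a check on simulated data, with Benjamini-Hochberg adjustment over all 13038 genes. The SE is the size of the log2 fold change over the root of its F statistic. Log2 CPM used a prior count of 2. A floor of 3 counts corresponds to 0.145 to 0.241 unscaled CPM in the 8 queens, and covers counting error only.

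Genes named in the text were the 10 largest rises and falls past the threshold (average log2 CPM of at least 1, no overlap between groups), the 3 lowest p values in each direction, list members that passed, the member with the lowest p of lists in which none passed, genes that the study names, and the 3 genes with most counts. CAH2, brp and GB46223 were named after their values were seen. The members, lists and tests were chosen with earlier results of these data known. Orthologs come from the study's lists. RefSeq (Amel_HAv3.1) gave a symbol through transcript accessions for 222 of 1088 listed genes, 23 of them other than a locus number. Alternatives were edgeR's exact test, DESeq2 1.42.0, other scalings and filters, a fit without virgin queens, a replicate block, and leaving out each queen.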

Additional observations from a re-analysis of the deposited data

Results flagged for a closer look

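Within a group of 4 queens, a queen was singled out where its gap to the nearest other queen, in log2 CPM, as a share of the group's range, exceeded Dixon's 95% critical value. Of 126 groups checked (63 named genes in 2 groups), 10 met this limit, and chance alone gives about 1 in 20. Among mated queens, Treh (GB43575) was low in queen 1 at 331 CPM, against 1076 to 1272 CPM in the others, Pbprp2 (GB53372) was low in queen 6 at 38.8 CPM, against 136 to 158 CPM, and CG7097 (GB44263) was high in queen 7 at 32.1 CPM, against 24.3 to 25.2 CPM. CO2-treated queen 1 accounted for 4 of the rest. It was low in Obp56g (GB46226) at 18.7 CPM, against 36.9 to 42 CPM in the others of its group, and in Obp56d (GB46230) at 21 CPM, against 67.1 to 79.6 CPM. It was high in CG10960 (GB48936) at 11.6 CPM, against 3.95 to 4.62 CPM, and in Osi23 (GB40438) at 0.75 CPM, against 0.404 to 0.448 CPM. CO2-treated queen 2 was high in Os-E (GB46225) at 50.2 CPM, against 14.3 to 15.5 CPM. CO2-treated queen 5 was high in Cyp6a2 (GB46814) at 46.5 CPM, against 5.25 to 6.75 CPM. CO2-treated queen 7 was high in CG14928 (GB48769) at 2.55 CPM, against 0.884 to 1.06 CPM.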

How the results depend on the processing

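The 86 genes past the threshold (68 higher and 18 lower in mated queens) became 287 (204 and 83) by edgeR's exact test with tagwise dispersions, 627 (408 and 219) with a common dispersion and 421 (310 and 111) by DESeq2's Wald test. Without TMM factors, 97 genes passed, 24 higher and 73 lower, 42 of them among the 86, and 27.9% of genes were free of overlap in place of 10.8%. Without a filter 9.96% were free of overlap, and 11.4% with filterByExpr. Requiring 10 counts in every library left 62 genes, with 8 falls. A fit without the virgin queens gave 94 genes, 71 higher and 23 lower, and 71 of the 94 were among the 86. Leaving out 1 queen gave 18 to 179 genes, 13 to 128 rises and 4 to 51 falls. The numbers 1 and 7 occur in both groups but name different queens, and the deviations of same-numbered queens correlated at 0.401 and 0.0746. Pairs with different numbers ran from -0.325 to 0.202. The labels of mated queen 1, CO2-treated queens 1 and 2 and virgin queen 1 end in br, which the labels do not explain. Its part in these values was not tested. With the number as a replicate block, 10 genes passed, 5 in each direction, and 5 of the 10 were among the 86. Over 63 named genes and 21 alternatives, 1093 of 1306 values kept their direction and their side of the threshold. Of the remaining values, 126 no longer passed, 79 newly passed and 8 changed sign, none of them in a gene past the threshold. These were GB43571 at -0.37 without TMM factors and -0.98 with the block, GB46225 at -0.38 and GB46230 at -0.28 with the block, GB46814 between -1.77 and 0.087 and GB50034 between -0.50 and 1.88 as queens were left out in turn, and GB50930 at -0.079 without TMM factors and -0.00074 with the block. The cause of these changes was not tested.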

Other observations

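Some large differences among genes averaging 1 log2 CPM or more were in genes that did not pass the threshold. The 4 given here were picked by size after their values were seen. GB53115 (ortholog CG31496) had 0, 0.0721, 0.087 and 0.271 CPM in mated queens, against 4.81, 7.85, 132 and 6.18 CPM in CO2-treated queens (log2 fold change -8.52, SE 1.96, adjusted p = 0.0746). Virgin queens had 74.9, 7.94, 0.168 and 50.5 CPM in this gene. GB53114 (ortholog CG32654), with the preceding ID number, had 0.0586, 0.433, 0 and 0 CPM in mated queens, against 3.06, 8.78, 80.0 and 2.42 CPM in CO2-treated queens (log2 fold change -7.42, SE 1.71, adjusted p = 0.0746), and virgin queens had 65.9, 19.9, 3.14 and 147 CPM. In both genes the groups did not overlap, and CO2-treated queen 5 was more than 9 times as high as any other CO2-treated queen. In GB49323 (ortholog CG8027) mated queens had 0.469, 68.1, 383 and 71.6 CPM, against 2.88, 3.79, 0.52 and 0.583 CPM in CO2-treated queens (log2 fold change 6.08, SE 1.35, adjusted p = 0.0684), with mated queen 1 below every CO2-treated queen and the other mated queens above them all. GB52667 had 9.02, 0, 3.05 and 0 CPM in mated queens, against 0, 0.052, 0.0577 and 0.0896 CPM in CO2-treated queens (log2 fold change 5.67, SE 1.75, adjusted p = 0.186), and was thus detected in only part of the mated queens.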
